A study of Mus musculus with 12 samples.

Results

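The genes described here encode 10 proteins of the cardiac Z-disc and its response to mechanical load: Actn2, Tcap, Ldb3, Myot, Myoz2, Csrp3, Ankrd1, Xirp1, Xirp2 and Nrap. They were found by name among the transcript probes of the array, with the older symbols Cmya1 for Xirp1 and Cmya3 for Xirp2. This gave 16 of 41174 probes, of which 15 passed the filter on dim signals, and all 10 genes were among the 18258 genes tested. The samples were entire hearts from 12 C57BL/6 males, 3 in each of 4 groups: cardioGRMRdKO hearts and dflox hearts at 2 months of age, and the same genotypes at 1 month. In cardioGRMRdKO mice, an αMHC-driven Cre recombinase, made in cardiomyocytes, acts on floxed Nr3c1 (glucocorticoid receptor) and floxed Nr3c2 (mineralocorticoid receptor). The dflox mice were Cre-negative littermates with the floxed alleles, so loss of the receptors and presence of Cre cannot be told apart here. The other cells of the heart keep both receptors.

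The Z-disc is the border between neighbouring sarcomeres, where α-actinin ties together thin filaments of opposite polarity and the ends of titin. It also holds adaptor proteins that bind signalling enzymes and move between sarcomere and nucleus, so it is regarded as one of the places where cardiomyocytes sense stretch. At the ends of the cell the last Z-disc is replaced by the intercalated disc, where Xin-repeat proteins and Nrap bind the terminal actin filaments.

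Levels are log2 intensities relative to the 75th percentile of transcript spots on the same array, so a level of 0 is that percentile and each unit is a doubling. Because probes differ in brightness, levels are compared between hearts for 1 probe and never between genes. The scanner software called 63.7% to 71.9% of transcript spots well above background on each array, marked 67 to 241 spots as outliers and found 0 saturated. The number of hearts limits the precision. The arrays lay on 3 slides of 4 places. At 1 month all cardioGRMRdKO arrays had inner places and all dflox arrays outer places, so in those hearts genotype and array place cannot be told apart. All 11 cardiomyocyte markers were well above background on every array. Of these, 2 had a positive genotype difference at 1 month, 3 at 2 months and 2 averaged over the ages. The median log2 differences were −0.09, −0.16 and −0.11. Averaged, 1 of 11 was called, lower, where 4.37% of all genes tested were called. The part of these markers in the results was not tested. Their summed linear level was 2135 in cardioGRMRdKO 2-month replicate 3, against 2586 to 3256 in the other 11 hearts. That heart was also the lowest of its group for Myot, Tcap, Myoz2, Csrp3, Ankrd1, Xirp2 and Nrap. Without it the 2-month difference of Myot was −1.94 and passed (limma adjusted p = 0.00136), and those of Tcap and Csrp3 were −0.34 and −0.08. The summed level of 7 atrial markers was 452 in cardioGRMRdKO 1-month replicate 1, against 770 to 914 in the other 1-month hearts; 0 of 7 were called, 0 of 7 had a positive genotype difference at 1 month (median −0.42), and their part in the results was not tested. Nr3c1 was at 1.45, 1.14 and 1.16 in the cardioGRMRdKO hearts at 2 months, against 2.51, 2.14 and 2.35 in the dflox hearts (log2 difference −1.09, SE 0.143, limma adjusted p = 0.00747). At 1 month its difference was −0.73 over 2 usable spots per genotype (adjusted p = 0.138). Nr3c2 was dim, with differences of −0.44 at 2 months and 0.07 at 1 month that did not pass (SE 0.491 each).

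Of the 10 genes, Myot and Ankrd1 differed between the genotypes past the threshold, a limma adjusted p (Benjamini-Hochberg) under 0.05 over all genes tested. Myot, which encodes myotilin, was 4.79-fold lower in cardioGRMRdKO hearts at 2 months. Ankrd1, which encodes the stretch-induced cardiac ankyrin repeat protein, was 1.91-fold higher in them at 1 month, a call that depended on the processing. The other 8 genes differed by at most 0.48 on the log2 scale at either age and did not pass. At 1 month, 1 of 10 members was called, where 0.948% of all genes tested were. At 2 months, 1 of 10 was called, where 2.23% of all genes were. Averaged over the ages, 2 of 10 were called, where 4.37% of all genes were. The median difference of the 10 genes was −0.10 at 1 month and −0.05 at 2 months, beside 0.00071 and −0.08 over all genes tested.

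**Figure D1:**
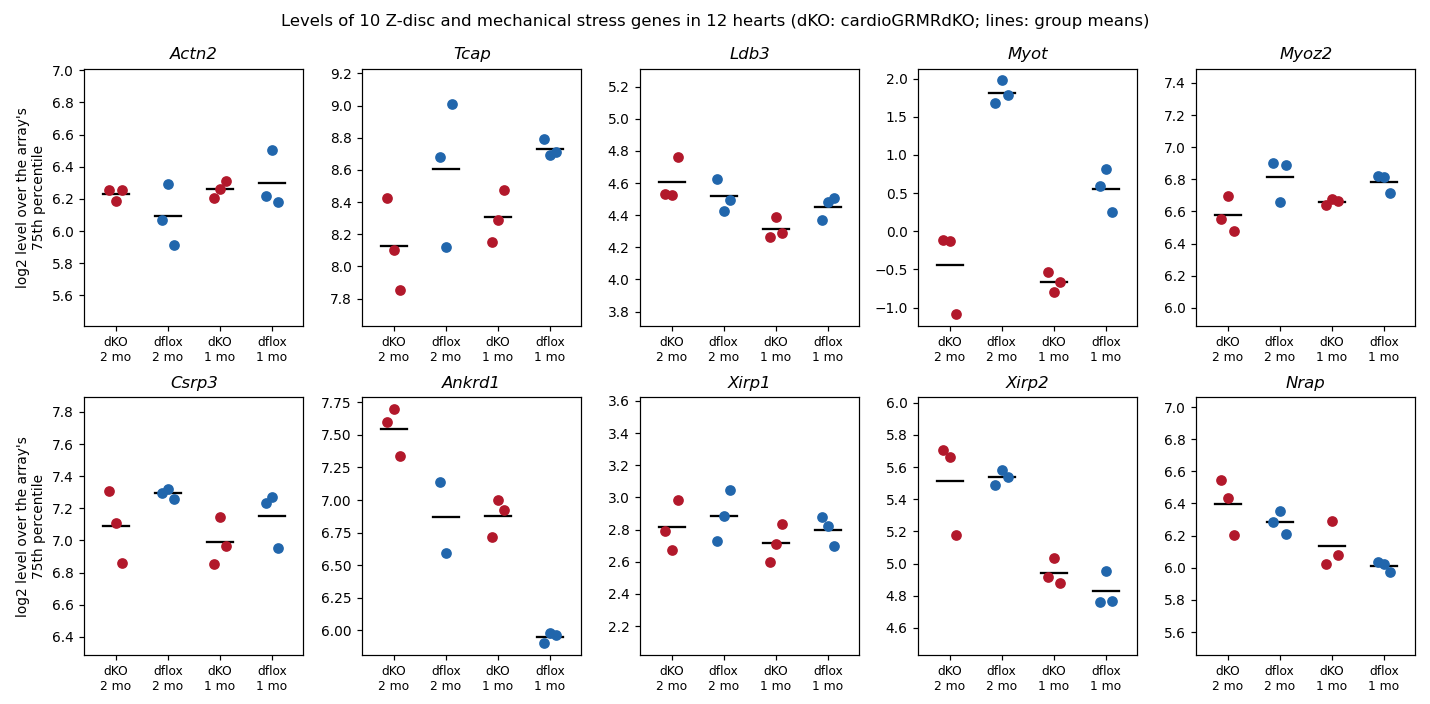
Level of each of the 10 genes in each heart, as log2 intensity over the array's 75th percentile; red points are cardioGRMRdKO (dKO) hearts, blue points dflox hearts, and black lines group means. Panels have their own axes, each spanning at least 1.6 log2 units. Myot lies lower in every cardioGRMRdKO heart than in every dflox heart of the same age, and Ankrd1 lies higher; Ankrd1 has 2 points for dflox hearts at 2 months because 1 spot was marked as an outlier.

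Myotilin binds α-actinin, filamin C and actin at the Z-disc and cross-links actin filaments; in humans, changes in its gene cause myofibrillar myopathy. At 2 months Myot was at −0.12, −0.13 and −1.09 in the cardioGRMRdKO hearts, against 1.68, 1.98 and 1.79 in the dflox hearts. Every cardioGRMRdKO heart was below every dflox heart, and replicate 3 was the lowest of its group. The log2 difference was −2.26 (SE 0.248, n = 3 and 3, limma adjusted p = 0.00136). At 1 month Myot was at −0.54, −0.79 and −0.66 in the cardioGRMRdKO hearts, against 0.59, 0.81 and 0.25 in the dflox hearts. The genotypes did not overlap at this age either, but the difference of −1.22 (SE 0.248) missed the threshold (adjusted p = 0.0542). Averaged over both ages the difference was −1.74 (SE 0.175, limma adjusted p = 0.000349), a 3.34-fold lower level. Myot was measured by 1 probe (mm7, chromosome 18, 44733035 to 44733094, plus strand), well above background on all 12 arrays.

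The order of the group means of Myot was dflox at 2 months (1.82 ± 0.15), dflox at 1 month (0.55 ± 0.29), cardioGRMRdKO at 2 months (−0.44 ± 0.56) and cardioGRMRdKO at 1 month (−0.67 ± 0.13; SD, n = 3 each). The lowest 2 groups overlapped. The genotype difference was larger at 2 months than at 1 month by 1.04, as a log2 difference of −1.04 (SE 0.351, unadjusted p = 0.0137). It did not pass over all genes (limma adjusted p = 0.951), a comparison in which 0 of 18258 genes passed (0%) and 645 (3.53%) had an unadjusted p under 0.05. Among the members, 1 of 10 had one.

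Within slides that held both genotypes, Myot differed by −1.39 and −1.20 at 1 month and by −2.77 and −2.01 at 2 months. With array place as a further term they were −1.60 at 1 month (limma adjusted p = 0.215) and −2.39 at 2 months (adjusted p = 0.0024). The place effect came from the 2-month arrays alone, so the 1-month value carries it over and does not separate place from genotype. The 1-month call was gained in 4 of 25 alternatives, with adjusted p values from 0.0075 to 0.811 over all of them. Among these was the fit without cardioGRMRdKO 2-month replicate 3 (−1.22, limma adjusted p = 0.0075). That heart is not in the 1-month comparison, so the difference did not change. It enters through the spread shared by the 4 groups. In whole hearts, fewer cells of a type and less RNA per cell cannot be told apart. Myotilin is also a protein of skeletal muscle. Of 11 skeletal muscle fibre markers, 0 were called at either age, where 0.948% of all genes were at 1 month and 2.23% at 2 months. Averaged over the ages, 3 (Atp2a1, Pvalb and Tnni2) were called lower in cardioGRMRdKO hearts, where 4.37% of all genes were called. The log2 differences of these 3 were −0.34, −1.52 and −0.67. The summed linear level of the 11 markers ran from 141 to 197 in cardioGRMRdKO and 197 to 222 in dflox hearts at 2 months, and from 175 to 191 in cardioGRMRdKO and 211 to 216 in dflox hearts at 1 month. A sum weights the brightest markers most. The mean log2 level of the markers ran from −1.83 to −1.63 in cardioGRMRdKO and −1.66 to −1.13 in dflox hearts at 2 months, with overlap. At 1 month it ran from −2.01 to −1.83 and from −1.62 to −1.27, without overlap. Of these markers, all but Actn3 (10 arrays), Myh1 (11) and Pvalb (7) were well above background on all 12 arrays, and their part in the Myot result was not tested.

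A second set of markers varied between hearts in a way that touches the 1-month, averaged and age comparisons. The summed linear level of 9 airway epithelium markers was 5.82, 2.68 and 1.38 in the cardioGRMRdKO hearts at 1 month, against 63.8, 142 and 121 in the dflox hearts. At 2 months it was 142, 1.22 and 161 in the cardioGRMRdKO hearts, against 7.60, 1.34 and 182 in the dflox hearts. Of these markers Sftpb was well above background on 0 of 12 arrays. Among the 8 tested, 0 had a positive genotype difference at 1 month, 8 at 2 months and 0 averaged over the ages. Their median log2 differences were −5.12, 1.06 and −1.95. At 2 months the cardioGRMRdKO hearts with sums of 142, 1.22 and 161 had Myot at −0.12, −0.13 and −1.09. The dflox hearts with sums of 7.60, 1.34 and 182 had it at 1.68, 1.98 and 1.79. The part of these markers in the genotype and age results was not tested.

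Ankyrin repeat domain 1 binds the N2A segment of titin in the sarcomere and acts in the nucleus as a transcriptional cofactor; its transcript is known to rise with stretch and overload. At 1 month Ankrd1 was at 6.71, 7.00 and 6.92 in the cardioGRMRdKO hearts, against 5.90, 5.98 and 5.96 in the dflox hearts. The genotypes did not overlap, and the 3 dflox hearts lay close together (SD 0.04). The log2 difference was 0.93 (SE 0.160, n = 3 and 3, limma adjusted p = 0.0298). At 2 months it was at 7.60, 7.70 and 7.34 in the cardioGRMRdKO hearts, against 7.14 and 6.60 in 2 dflox hearts. The spot of dflox replicate 1, at a level of 5.98, was marked as an outlier by the scanner software and left out. The genotypes did not overlap, with or without it, and the difference of 0.68 (SE 0.179, n = 3 and 2) did not pass (limma adjusted p = 0.107). It ran from 0.41 without dflox replicate 3 to 0.95 without dflox replicate 2 (adjusted p = 0.443 and 0.0551). Averaged over the ages Ankrd1 was 1.75-fold higher, a log2 difference of 0.81 (SE 0.120, limma adjusted p = 0.00523).

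The 1-month call of Ankrd1 held in 9 of 24 alternatives, with adjusted p values from 0.0174 to 0.978. It was lost without any 1 of the 6 hearts compared (0.87 to 1.01, limma adjusted p from 0.0658 to 0.139) and without cardioGRMRdKO 2-month replicate 1 (adjusted p = 0.0621). With the outlier spot of the 2-month dflox heart kept, the 1-month difference of 0.93 had an adjusted p of 0.137 and the 2-month difference became 0.98 (adjusted p = 0.074). With place in the model the differences were 0.62 at 1 month and 0.54 averaged (adjusted p = 0.937 and 0.377). Both rest on a place effect that came from the 2-month arrays alone. Within slides that held both genotypes the differences were 1.10 and 0.95 at 1 month and 0.83 at 2 months. The genotype differences at the 2 ages differed by −0.25 (95% interval −0.79 to 0.29), which turned positive under normexp background correction (0.15) and with the outlier spot kept (0.04), and without 1 heart ranged from −0.52 to 0.02. The probe lay on the minus strand of chromosome 19 (mm7, 35813004 to 35813063).

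The 250 bases before the annotated start of Ankrd1 are shown because this was the member called higher, on the minus strand at chr19:36119845-36120094 (RefSeq, GRCm38.p6). Capitals mark the 2 matches to the M-CAT motif CATTCC, the recognition motif of TEAD factors, both read here as its reverse complement and starting at −210 and −123.
Ankrd1: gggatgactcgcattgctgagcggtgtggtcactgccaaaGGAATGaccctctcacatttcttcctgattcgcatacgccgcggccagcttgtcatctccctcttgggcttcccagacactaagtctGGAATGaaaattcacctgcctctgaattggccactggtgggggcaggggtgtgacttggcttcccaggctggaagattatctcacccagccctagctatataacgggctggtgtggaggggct
Searched on both strands over windows of 250 bases before to 50 after a start, CATTCC occurred in 14.7% of 32851 windows of 27025 genes, and 1.36% held at least 2 matches. RefSeq windows were matched for 7 of the 10 members, 9 windows in all, and Ankrd1 was the 1 member of these with a match. Myot, Tcap and Xirp1 were not among the 7, so no motif was searched for them. The letters AGAACA, only a part of the glucocorticoid response element, were found in 19.0% of all windows. They occurred in windows of Ldb3 and Csrp3 and are not in the Ankrd1 window. The full glucocorticoid response element was found in 0.0091% of all windows and in none of the members' windows. The E-box CANNTG, found in 72.3% of all windows, occurred once in the Ankrd1 window, at −111, and did not overlap the M-CAT matches.

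**Figure D2:**
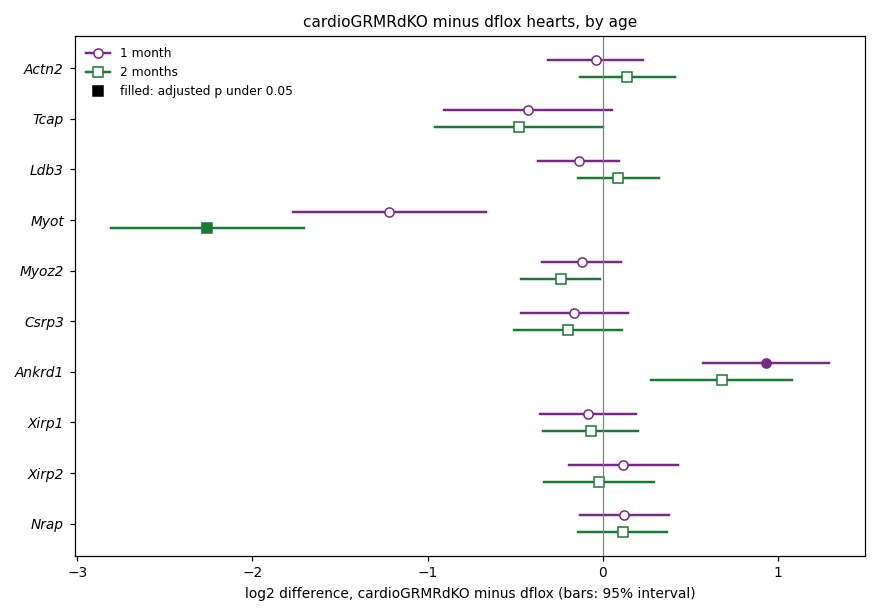
Log2 difference of each gene, cardioGRMRdKO minus dflox, at 1 month (purple circles) and 2 months (green squares), with 95% intervals from limma; filled symbols passed at an adjusted p under 0.05. Myot at 2 months (−2.26) and Ankrd1 at 1 month (0.93) are filled, and the other 8 genes lie between −0.48 and 0.14.

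Among the structural backbone of the Z-disc, Actn2 encodes the α-actinin of cardiac sarcomeres and Tcap encodes telethonin, which caps the ends of paired titin molecules. Actn2 was at 6.25, 6.19 and 6.26 in the cardioGRMRdKO hearts at 2 months, against 6.07, 6.29 and 5.92 in the dflox hearts. Its difference was 0.14 at 2 months (95% interval −0.13 to 0.41) and −0.04 at 1 month (−0.31 to 0.23), and the genotypes overlapped at both ages. Tcap was at 8.15, 8.29 and 8.48 in the cardioGRMRdKO hearts at 1 month, against 8.79, 8.69 and 8.71 in the dflox hearts, without overlap. At 2 months it was at 8.43, 8.10 and 7.85 in the cardioGRMRdKO hearts, against 8.68, 8.12 and 9.01 in the dflox hearts, and the genotypes overlapped. The differences were −0.43 at 1 month (−0.91 to 0.05, limma adjusted p = 0.649) and −0.48 at 2 months (−0.96 to 0.00342, adjusted p = 0.334). The 2-month value ran from −0.72 without dflox replicate 2 to −0.27 without dflox replicate 3. Tcap differed by −0.45 averaged over the ages (SE 0.153, unadjusted p = 0.0141, limma adjusted p = 0.152). Without dflox 2-month replicate 2, the lowest dflox heart for Tcap, the averaged difference was −0.57 and passed (limma adjusted p = 0.0381, against 0.0381 to 0.551 over 24 alternatives), while without dflox 2-month replicate 3 it was −0.35 (adjusted p = 0.271).

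Of the adaptors that bind α-actinin, Ldb3 encodes a PDZ-LIM protein that also binds protein kinase C, and Myoz2 encodes calsarcin-1, which tethers and restrains the phosphatase calcineurin. Myoz2 was at 6.64, 6.68 and 6.67 in the cardioGRMRdKO hearts at 1 month, against 6.82, 6.81 and 6.72 in the dflox hearts, without overlap. At 2 months it was at 6.55, 6.70 and 6.48 in the cardioGRMRdKO hearts, against 6.90, 6.66 and 6.89 in the dflox hearts. The differences, −0.12 at 1 month (95% interval −0.35 to 0.10) and −0.24 at 2 months (−0.47 to −0.02), did not pass (limma adjusted p = 0.921 and 0.298). Myoz2 differed by −0.18 averaged over the ages (unadjusted p = 0.0291, limma adjusted p = 0.221), and its second, dimmer probe by −0.37 (adjusted p = 0.213 over the 26984 probes kept). Ldb3 differed by −0.14 at 1 month (−0.37 to 0.09) and 0.09 at 2 months (−0.14 to 0.32). Of its other 2 probes, 1 gave −0.13 at 1 month and 0.14 at 2 months, and the probe nearest the chromosome's start (mm7, chromosome 14, 31962823 to 31962882) gave 0.19 and 0.06. The Ldb3 probes thus disagreed in sign at 1 month, and 0 of 3 passed at either age.

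Csrp3 encodes muscle LIM protein, an adaptor at the Z-disc that also enters the nucleus as a transcriptional cofactor. It was at 7.31, 7.11 and 6.86 in the cardioGRMRdKO hearts at 2 months, against 7.30, 7.32 and 7.26 in the dflox hearts. The SD was 0.22 in the cardioGRMRdKO hearts and 0.03 in the dflox hearts, and the groups overlapped. The difference was −0.20 at 2 months (95% interval −0.51 to 0.11), −0.16 at 1 month (−0.47 to 0.14) and −0.18 averaged (limma adjusted p = 0.381). In all 25 alternatives Csrp3 stayed below 0 at both ages and did not pass.

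At the intercalated disc, Xirp1 and Xirp2 encode the Xin actin-binding repeat proteins, and Nrap encodes a nebulin-related anchoring protein of myofibril assembly. Xirp1 differed by −0.08 at 1 month and −0.07 at 2 months (95% intervals −0.36 to 0.19 and −0.34 to 0.20), and its 2-month value was 0.02 under quantile normalization. Xirp2 differed by 0.12 at 1 month (−0.20 to 0.43) and −0.02 at 2 months (−0.33 to 0.29), and the 2-month value was 0.10 under quantile normalization. Nrap differed by 0.12 at 1 month (−0.13 to 0.38) and 0.11 at 2 months (−0.14 to 0.37). All 3 genes overlapped between genotypes at both ages, and their directions are not settled by these hearts. A second probe named Nrap lies on chromosome 3 (mm7, 142223009 to 142223068) rather than with the other Nrap probe on chromosome 19, and was well above background on 0 of 12 arrays.

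Counting hearts rather than tests, 4 of the 10 genes did not overlap between genotypes at 1 month: Ankrd1 higher, and Myot, Tcap and Myoz2 lower in cardioGRMRdKO hearts. The share over all genes tested was 18.3%, and at this age the array places did not overlap either. At 2 months 2 of 10 did not overlap, Ankrd1 higher and Myot lower, beside 17.3% of all genes.

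Between 1 and 2 months of age, no member passed, and the smallest adjusted p values were those of Myot, Xirp2 and Ankrd1 in dflox hearts, all higher at 2 months. In cardioGRMRdKO hearts 0 of 10 members passed, where limma called 0.351% of all genes, and 4 of 10 had an unadjusted p under 0.05, where 12.3% of all genes did. In dflox hearts 0 of 10 passed, where 0.635% of all genes did, and 4 of 10 had an unadjusted p under 0.05, where 13.9% of all genes did. These shares rest on few hearts: with 1 heart left out, 4 to 55 of all genes were called by age in cardioGRMRdKO hearts, against 64 with all hearts, and 3 to 145 in dflox hearts, against 116. These comparisons share no hearts with each other, but each shares its hearts with the genotype comparisons.

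Xirp2 was at 5.70, 5.66 and 5.17 in the cardioGRMRdKO hearts at 2 months, against 4.91, 5.04 and 4.88 in those at 1 month. In the dflox hearts it was at 5.49, 5.58 and 5.54 at 2 months, against 4.76, 4.95 and 4.77 at 1 month. The ages did not overlap in either genotype. The log2 differences were 0.57 in cardioGRMRdKO hearts (SE 0.140, limma adjusted p = 0.124) and 0.71 in dflox hearts (adjusted p = 0.0561). Its second probe gave 0.71 in cardioGRMRdKO and 0.78 in dflox hearts (adjusted p = 0.111 and 0.0724 over probes), and the third and dimmest gave 0.15 and 1.08. Without cardioGRMRdKO 2-month replicate 3, the lowest of its group, the differences were 0.74 in cardioGRMRdKO and 0.71 in dflox hearts, and both passed (limma adjusted p = 0.0415 and 0.0142). That heart is not in the dflox comparison, where the difference did not change, and enters it through the spread shared by the groups. Over all 25 alternatives the adjusted p ran from 0.0415 to 0.775 in cardioGRMRdKO hearts and from 0.0142 to 0.494 in dflox hearts. A call was gained in 2 and 4 of them.

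The bases before an annotated start of Xirp2, on the plus strand at chr2:67445752-67446001 (RefSeq, GRCm38.p6), are shown because the ages did not overlap for this gene in either genotype. Capitals mark its match to the MEF2 site, which binds myocyte enhancer factor 2, starting at −74.
Xirp2: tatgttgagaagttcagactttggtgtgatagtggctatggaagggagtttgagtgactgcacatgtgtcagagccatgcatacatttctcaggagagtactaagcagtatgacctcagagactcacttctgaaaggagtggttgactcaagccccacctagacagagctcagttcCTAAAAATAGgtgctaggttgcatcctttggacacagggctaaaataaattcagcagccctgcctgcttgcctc
A MEF2 site occurred in 3.19% of all windows and, among the members, also in that of Myoz2, at −33. A CArG box, the site of serum response factor, occurred in 1.63% of all windows and in both windows of Ldb3, which share the match. A match describes letters in a window and not binding.

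Ankrd1 was at 7.60, 7.70 and 7.34 in the cardioGRMRdKO hearts at 2 months, against 6.71, 7.00 and 6.92 at 1 month, a difference of 0.67 (SE 0.160, limma adjusted p = 0.125). In dflox hearts it was at 7.14 and 6.60 in 2 hearts at 2 months, against 5.90, 5.98 and 5.96 at 1 month, a difference of 0.92 (SE 0.179, adjusted p = 0.0595). The ages did not overlap in either genotype. With the outlier spot kept, the difference in dflox hearts was 0.62 (adjusted p = 0.283). Ankrd1 in cardioGRMRdKO hearts at 1 month (6.88 ± 0.15, n = 3) and in dflox hearts at 2 months (6.87 ± 0.38, n = 2) were the neighbouring group means that overlapped. The Ankrd1 transcript thus had its highest group mean in cardioGRMRdKO hearts at 2 months (7.55 ± 0.19) and its lowest in dflox hearts at 1 month (5.95 ± 0.04; SD, n = 3 each).

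Myot had a difference of 0.22 between the ages in cardioGRMRdKO hearts (95% interval −0.33 to 0.77, limma adjusted p = 0.823), with overlap, and of 1.26 in dflox hearts (SE 0.248, adjusted p = 0.0543), without overlap. With 1 heart left out, the value in cardioGRMRdKO hearts ran from 0.059 to 0.54, the highest being without 2-month replicate 3. The difference in dflox hearts passed in 4 of 25 alternatives, with adjusted p values from 0.0132 to 0.531 over all of them. Among these was the fit without cardioGRMRdKO 2-month replicate 3 (1.26, limma adjusted p = 0.0132). That heart is not in the dflox comparison and enters it through the spread shared by the groups. Whether the age differences differ between genotypes is the same test as for the genotype differences above, and it did not pass. Nrap differed by 0.26 in cardioGRMRdKO hearts and 0.27 in dflox hearts (limma adjusted p = 0.392 and 0.325). Ldb3 differed by 0.29 and 0.06 in these genotypes (adjusted p = 0.282 and 0.797). The other 5 genes lay between −0.21 and 0.14. In cardioGRMRdKO hearts 3 of 10 genes did not overlap between the ages (Ankrd1, Xirp2 and Ldb3), all higher at 2 months, beside 17.8% of all genes. In dflox hearts 4 of 10 did not (Myot, Ankrd1, Xirp2 and Nrap), all higher at 2 months, beside 20.1% of all genes.

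**Figure D3:**
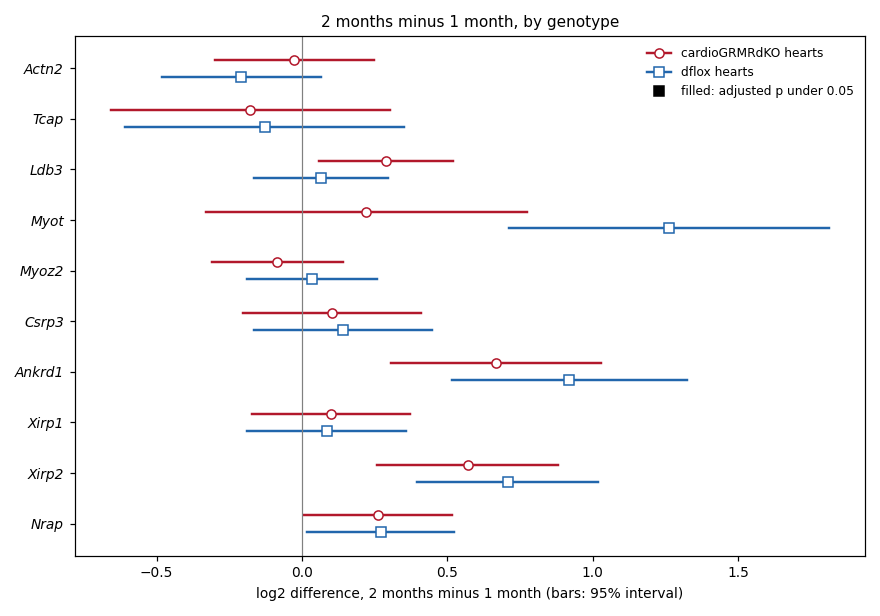
Log2 difference of each gene, 2 months minus 1 month, in cardioGRMRdKO hearts (red circles) and dflox hearts (blue squares), with 95% intervals from limma; no symbol is filled because none passed at an adjusted p under 0.05. Ankrd1 and Xirp2 lie above 0 in both genotypes, while Myot is at 0.22 in cardioGRMRdKO hearts and 1.26 in dflox hearts.

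The genes whose levels followed Myot most closely over the 12 hearts, by the root mean square difference of log2 levels centred on each gene's mean among 15953 candidates, were Rasl10a (0.366), Phyhd1 (0.428) and Rhd (0.435). Myot itself varied with an SD of 1.02. Rasl10a encodes a Ras-like GTPase, and it differed by −1.58 at 1 month and −2.27 at 2 months between the genotypes. Phyhd1, which encodes a phytanoyl-CoA dioxygenase family enzyme, differed by −1.80 and −2.27, and Rhd, a blood group protein gene, by −0.42 and −1.49. For Ankrd1, over the 11 hearts with a value, they were Tnfrsf12a (0.145), which encodes the receptor Fn14, Cst6 (0.167), which encodes a cystatin protease inhibitor, and Igsf1 (0.213), a membrane glycoprotein gene. The SD of Ankrd1 was 0.614. Tnfrsf12a differed by 0.79 at 1 month and 0.70 at 2 months, Cst6 by 0.69 and 0.71, and Igsf1 by 0.78 and 1.00. These genes were chosen for their likeness, so the values describe them and test nothing.

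**Figure D4:**
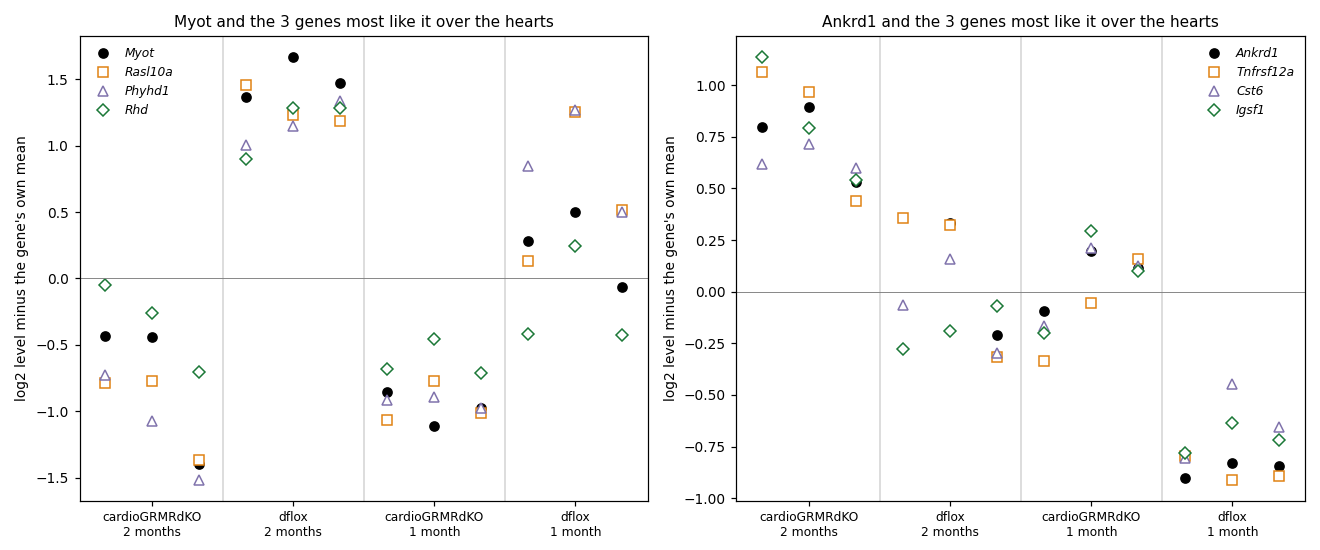
Level of Myot (left) and Ankrd1 (right) in each heart, as filled black points, with the 3 genes whose centred levels were nearest to each as open symbols; each gene's own mean over the hearts was subtracted and hearts are grouped by genotype and age. Myot and its nearest genes lie below their means in all cardioGRMRdKO hearts and above them in all dflox hearts at 2 months; Ankrd1 has no point for 1 dflox heart at 2 months.

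Other genes of the same structures came from 3 lists of textbook members. Over all genes tested, 0.948% were called at 1 month, 2.23% at 2 months and 4.37% averaged over the ages, and 9.29%, 15.1% and 17.3% had an unadjusted p under 0.05. Of 32 other Z-disc genes, limma called 0 at 1 month and 1 at 2 months, and 6 and 8 had an unadjusted p under 0.05. The 1 was Pdlim1, which encodes a PDZ-LIM adaptor of α-actinin. It was at 4.88 and 4.80 in the 2 cardioGRMRdKO hearts with a usable spot at 2 months, against 4.15, 4.32 and 4.32 in the dflox hearts. The difference was 0.58 (SE 0.108, limma adjusted p = 0.027) at 2 months and 0.50 averaged (adjusted p = 0.00464). With the spot of cardioGRMRdKO replicate 3 kept, which was marked as an outlier, the 2-month difference was 0.45 and did not pass (adjusted p = 0.106). Averaged over the ages, 1 gene was higher and 2 lower: Csrp2, which encodes a LIM protein related to muscle LIM protein, by −0.49 (limma adjusted p = 0.0232), and Cmya5, which encodes myospryn, by −0.36 (adjusted p = 0.0489). At 2 months Csrp2 and Cmya5 differed by −0.60 and −0.50 and did not pass (limma adjusted p = 0.0705 and 0.0808). The list's median difference was −0.08 at 1 month, −0.05 at 2 months and −0.06 averaged, beside 0.00071, −0.08 and −0.05 over all genes.

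A list of 22 genes covered titin-linked stretch sensing and sarcomere turnover, and also calcineurin signalling and transcriptional regulators. Of these 22, limma called 0 at 1 month, 2 at 2 months and 5 averaged over the ages. An unadjusted p under 0.05 was found for 5, 9 and 11. The genes called at 2 months, Rcan1 and Myocd, belong to calcineurin signalling and to the transcriptional regulators. Rcan1, an inhibitor of calcineurin whose transcript calcineurin signalling induces, was at 3.27, 3.46 and 3.13 in the cardioGRMRdKO hearts at 2 months, against 2.50, 2.63 and 2.24 in the dflox hearts. The groups did not overlap, and it rose by 0.83 (SE 0.155, limma adjusted p = 0.0217). Myocd, which encodes the serum response factor cofactor myocardin, was at 0.57, 0.47 and 0.16 in the cardioGRMRdKO hearts at 2 months, against 1.21, 1.21 and 0.92 in the dflox hearts, and it fell by 0.71 (SE 0.134, adjusted p = 0.0222). Trim55, next by p in the list at 2 months and a dim probe, differed by −1.45 without overlap and did not pass (SE 0.354, limma adjusted p = 0.0735). Averaged over the ages, 4 of the 22 rose and 1 fell. The relatives of Ankrd1 were among those that rose: Ankrd23 by 0.83 (SE 0.157, limma adjusted p = 0.0172) and Ankrd2 by 0.75 (SE 0.155, adjusted p = 0.0224), which encode the other 2 muscle ankyrin repeat proteins. Capn3, a titin-bound protease, rose by 0.97 (adjusted p = 0.0152) and Rcan1 by 0.60 (adjusted p = 0.0113), while Myocd fell by 0.46 (adjusted p = 0.0212).

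Ankrd23 was at 5.02, 5.54 and 5.10 in the cardioGRMRdKO hearts at 1 month, against 4.38, 4.70 and 4.27 in the dflox hearts, and at 6.31, 6.23 and 5.87 in the cardioGRMRdKO hearts at 2 months, against 5.53 and 4.98 in 2 dflox hearts. The genotypes did not overlap at either age for Ankrd23 or Ankrd2. Under normexp background correction the averaged difference of Ankrd2, a dim probe, was 0.20 and did not pass (limma adjusted p = 0.459). The list's median difference was 0.0015 at 1 month, −0.06 at 2 months and −0.09 averaged. With age, Rcan1 rose by 0.93 in cardioGRMRdKO hearts (limma adjusted p = 0.0422) and Capn3 by 1.42 in dflox hearts (adjusted p = 0.0486), each 1 of 22, and these calls held in 5 and 3 of 25 alternatives.

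Of 30 costamere and intercalated disc genes, limma called 0 at 1 month and 1 at 2 months, and 1 and 7 had an unadjusted p under 0.05. The gene called was Sgca, which encodes α-sarcoglycan of the dystrophin complex. It was at 3.74, 3.66 and 3.73 in the cardioGRMRdKO hearts at 2 months, against 4.06, 4.16 and 4.38 in the dflox hearts, and it fell by 0.49 (SE 0.100, limma adjusted p = 0.0322). It differed by −0.30 averaged over the ages (adjusted p = 0.0424). Both calls held in 4 alternatives only, of 25 and 24. The list's median was −0.02 at 1 month, −0.03 at 2 months and −0.02 averaged. Among the 3 genes with the smallest p in the list at 2 months were also Itgb1bp2, which encodes the integrin-binding melusin (−0.33, adjusted p = 0.201), and Fermt2, which encodes kindlin-2 (−0.33, adjusted p = 0.235).

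**Figure D5:**
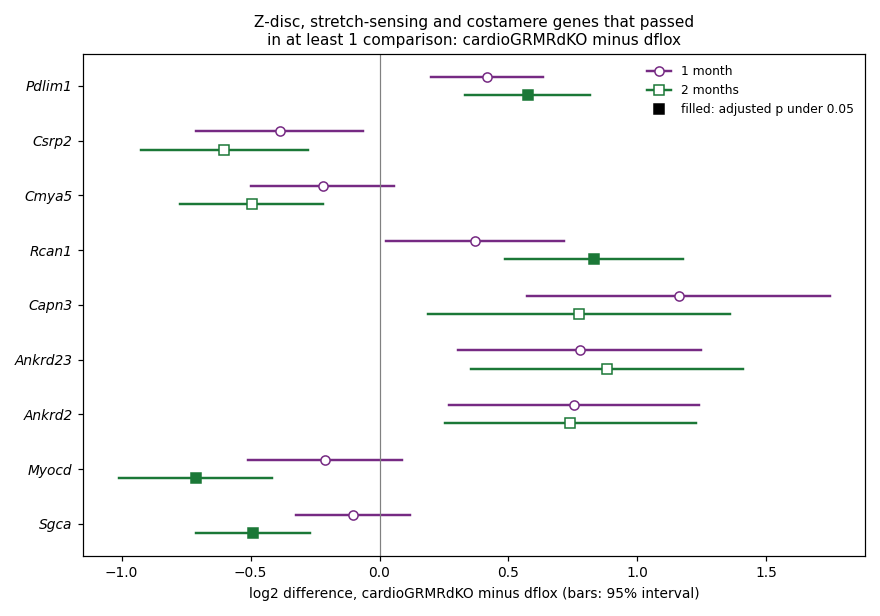
Log2 difference, cardioGRMRdKO minus dflox, at 1 month (purple circles) and 2 months (green squares) for the 9 genes of the 3 lists that passed in at least 1 comparison, with 95% intervals from limma; filled symbols passed at an adjusted p under 0.05 at that age. Pdlim1 (0.58), Rcan1 (0.83), Myocd (−0.71) and Sgca (−0.49) are filled at 2 months, and none is filled at 1 month.

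Losing 1 heart changed several of these calls. The 2-month call of Pdlim1 was lost without any 1 of 8 hearts (0.52 to 0.61 over the 12 omissions). That of Sgca was lost without any 1 of 11 (−0.56 to −0.40). Those of Rcan1 and Myocd were lost without any 1 of 4 each (0.72 to 0.92 and −0.81 to −0.59). Over all 25 alternatives the 2-month calls of Pdlim1, Rcan1 and Myocd were lost in 16, 13 and 10. Of the averaged calls, Ankrd23 was lost without dflox 1-month replicate 1 or dflox 2-month replicate 3 (limma adjusted p = 0.0511 and 0.0725), and Ankrd2 without any 1 of 3 hearts (adjusted p at most 0.0565). Csrp2, Myocd, Cmya5 and Sgca were lost without any 1 of 5, 6, 10 and 11 hearts. The averaged calls of Pdlim1, Rcan1 and Capn3 held in all 12 omissions. Over all 24 alternatives they were lost in 3, 5 and 6. The averaged calls of Ankrd23, Ankrd2, Csrp2, Myocd and Cmya5 were lost in 6, 9, 11, 10 and 17. Capn3, a dim probe, ran from 0.41 to 1.14 over the 24 alternatives (limma adjusted p up to 0.276).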

How the data were processed

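Whole-heart total RNA was labelled with Cy3 and hybridised to 12 single-colour Agilent arrays, 1 per heart. The authors deposited scanner output with a processed intensity per spot, from Agilent Feature Extraction (9.5.3.1 per the file headers, 9.5 per the submitters' processing notes). In 100% of values the authors' series matrix held the same intensity. Coordinates refer to mm7, per the file headers.

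Outlier and control spots were left out, intensities were put on a log2 scale, the array's 75th percentile was subtracted and spots of 1 probe were averaged. A probe was kept if all 3 arrays of any 1 group had it well above background (26984 of 41174 probes), and the brightest represented its gene. limma 3.58.1 (R 4.3.3) fitted 4 group means to 12 arrays (prior degrees of freedom 2.28, residual 8), with two-sided tests and Benjamini-Hochberg adjustment over 18258 genes. An exact permutation test of 3 against 3 cannot go below 0.10. Arrays were simulated with 200 changed genes among 17777 and noise drawn independently for each gene and array. Changes of 1 and 2 log2 units at 2 months were recovered in 58.0% to 78.0% and 86.0% to 88.0% of genes, by direction, with 9 false calls. The simulation held no slide, place or tissue differences, so these rates need not hold for the real arrays. Promoter windows were searched with Python 3.11.15. Alternatives were another background correction, scaling, filter, probe rule and treatment of outlier spots, slide, place or replicate number in the model, and omission of slides, hearts or groups. Errors are SD for levels and SE for differences.

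Named were all 10 members, the called members of each list and up to 3 with the smallest p, and the 3 genes most like each called member. The members and lists were chosen with earlier results of these data known, so their counts are descriptions.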

Additional observations from a re-analysis of the deposited data

How the results depend on the processing

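Results were recomputed under 25 alternatives, among them omission of each of 12 hearts. Of 912 values of the members, 855 kept their direction and side of the threshold, 21 lost and 19 gained a call, and 17 changed sign, none of those a called value. The call of Myot at 2 months was lost without slide 2 (−2.42, limma adjusted p = 0.0702) or slide 3 (−2.28, 0.0638), and its averaged call without slide 2 (0.0508); fewer hearts then remained, and the adjusted p ran from 0.000254 to 0.0702 and from 7.32e-05 to 0.0508. For Ankrd1 averaged, the call was lost without slide 1 (0.0788), slide 2 (0.307) or with place in the model.

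Differences that changed sign were, with place in the model, Nrap (−0.019), Xirp1 (0.16) and Xirp2 (−0.10) at 1 month and Xirp1 at 2 months (0.011). These 1-month values carry over a place effect that came from the 2-month arrays alone. Under quantile normalization Xirp1 (0.016) and Xirp2 (0.10) at 2 months turned positive. The change in the genotype difference of Ankrd1 between the ages became 0.15 under normexp and 0.043 with outlier spots kept. Without slide 1, Xirp2 at 2 months was 0.12 and Ldb3 by age in dflox hearts −0.033; without slide 2, Actn2 at 1 month was 0.014; without slide 3, Xirp1 at 2 months was 0.16. With 1 heart left out, Actn2 at 1 month ran from −0.10 to 0.060, Xirp1 at 2 months from −0.15 to 0.0096, Xirp2 at 2 months from −0.12 to 0.15, and the Ankrd1 change between ages from −0.52 to 0.019. The cause was not tested.

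Of the 10 members, the 1 called at 1 month became 0 with no filter on dim probes, with outlier spots kept, with slide, place or replicate block in the model and without slide 1, 2 or 3, and 2 with the filter on all arrays and with the compared groups alone. The 1 at 2 months became 2 under normexp and quantile normalization and 0 without slide 2 or 3. The 2 averaged became 1 with place and without slide 1 or 3, and 0 without slide 2. Without slide 3 Ankrd1 had no value, since its spot on the 1 dflox 2-month array left was the outlier, so the lower counts there at 1 month and averaged over the ages are a missing test and not a lost call. By age in dflox hearts, 0 became 2 under normexp and 3 under quantile normalization and the filter on all arrays; in cardioGRMRdKO hearts, 0 became 1 under quantile normalization. With 1 heart left out, the counts were 0 to 2 at 1 month, 0 to 2 by age in dflox hearts and 0 to 1 by age in cardioGRMRdKO hearts.

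Of the other Z-disc genes, 1 at 2 months became 2 with the mean of a gene's probes and with place, and 0 with no filter, outlier spots kept, slide, replicate block, without slide 1, 2 or 3, and with the compared groups alone. The 3 averaged became 1 with no filter and with replicate block, and 0 without slide 1, 2 or 3. In the titin-linked list, with its calcineurin genes and transcriptional regulators, 2 at 2 months became 1 under normexp, slide and place. They became 4 under quantile normalization, and 0 with no filter, the compared groups alone and without slide 1, 2 or 3. The 5 averaged became 3 under normexp, no filter and the mean of probes, 1 with place and 0 without slide 1, 2 or 3. Their 1 by age in each genotype became 0 under normexp, no filter, mean of probes, place, the compared groups alone and without slide 1, 2 or 3, and in dflox hearts also with slide and replicate block. Of the costamere genes, the 1 at 2 months and the 1 averaged became 0 under normexp, quantile normalization, no filter, slide, place, replicate block and without slide 1, 2 or 3; the first was also 0 with the compared groups alone and the second 2 with the mean of probes. With 1 heart left out, the Z-disc counts were 0 to 1 at 2 months and 1 to 4 averaged, the titin-linked counts 0 to 1 at 1 month, 0 to 4 at 2 months, 3 to 6 averaged and 0 to 1 by age, and the costamere counts 0 to 1.

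The replicate numbers only name the hearts: same-numbered hearts of different groups correlated from −0.49 to 0.55 in their deviations from group means, so the replicate block is no pairing. Both extremes also involve slide: the hearts at 0.55 shared slide 3, and those at −0.49 lay on slides 3 and 1. Hearts of different groups on the same slide correlated from −0.17 to 0.55, mostly above 0. The main model held no slide term, so a slide effect remains in its values. Neither normexp nor quantile normalization moved the median of all genes by over 0.1. Over all genes, normexp called 113 at 1 month, 240 at 2 months, 490 averaged, and 34 and 61 by age in cardioGRMRdKO and dflox hearts, against 173, 407, 798, 64 and 116. With 1 heart left out they were 79 to 224 at 1 month, 241 to 351 at 2 months and 514 to 781 averaged, and 0 to 2 for the difference between the ages. The share of calls that were higher was 38.8% at 2 months and 41.2% averaged under normexp, against 50.4% and 52.5%, and 38.4% by age in dflox hearts under quantile normalization, against 49.1%. Dim probes, such as that of Nr3c2, limit what could be seen at this signal.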
